A study of Arabidopsis thaliana with 18 samples.

Results

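Transcript levels in roots of Arabidopsis thaliana plants given 2 mM caesium were compared with those in roots of control plants. The comparison rests on 6 of the 18 arrays of the series, namely the 3 root arrays of each of these groups. All plants were of the ecotype Ws-2, were grown in a growth room at 80% humidity and were labelled with growth stage 3.90. The caesium-treated plants received a dilute Murashige and Skoog nutrient solution with 2 mM caesium. The labels give no treatment for the control plants. A further group of 3 root arrays came from plants on the same dilute solution with no potassium, and these potassium-starved roots shared the estimate of the spread. Root samples held all root material of 40 to 50 pooled plants, and shoots of the same 3 treatments were hybridised to the other arrays. Nothing in the labels says that the samples of a group came from separate sowings, so the spread behind each p-value is that of these samples and may be technical.

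Caesium is an alkali metal ion with the charge of potassium and chemistry close to it. Plant roots take it up through transporters and channels that carry potassium and other cations, and at high supply it disturbs potassium nutrition and growth. Potassium itself is the main inorganic cation of plant cells, where it sets turgor, membrane potential and the activity of many enzymes. Roots short of potassium are known to alter high-affinity uptake, jasmonate-linked defence genes and reactive oxygen signalling.

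Each value is the signal of a probe set, the group of short probes on an Affymetrix ATH1 array that reads 1 or a few transcripts. The authors' signals were on a linear scale with a trimmed mean of 100 on every array. Changes were tested as differences of log2(signal + 16), so that changes of dim probe sets are understated. The 13646 probe sets whose mean over the 9 root arrays was above a floor of 28.3 were tested, with the replicate number as a block. Of these, 7408 named 1 gene. The root label was borne out by PYK10, a beta-glucosidase abundant in roots, with signals of 1914.9, 2316 and 2821.3 in control roots and 2197, 2571.4 and 2363.4 in caesium-treated roots. In control shoots its signals were 172.5, 1199.7 and 278.9. Some measures of the hybridisations moved with the treatment. The average scanner background of the labels was 67.5 ± 4.55 on the caesium-treated and 77.0 ± 1.89 on the control arrays (SD, n = 3 each), with a two-sided exact permutation p of 0.1, the smallest that 3 against 3 arrays allow. The median signal was 44.3 ± 0.723 and 43.0 ± 0.321 (SD, n = 3 each), also at an exact permutation p of 0.1. The title of caesium-treated root replicate 2 marks it as a repeat, as does that of potassium-starved root replicate 1. Over the 13646 tested probe sets, the log2 signals of pairs of caesium-treated arrays correlated at 0.958 to 0.976 and those of pairs of control arrays at 0.933 to 0.956. Those of 1 array of each group correlated at 0.932 to 0.965, as a description across probe sets of 3 arrays a group.

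The roots of caesium-treated plants had higher signals of 2 defensins, an expansin-like gene, a germin-like gene and a lipid transfer protein gene. Signals were lower for genes of methionine-derived glucosinolates and for a coumarin synthesis gene. At a limma adjusted p under 0.05, 50 of the 13646 probe sets changed (0.366%), of which 22 were higher (0.161%) and 28 lower (0.205%) with caesium. The log2 changes ranged from 0.80 to 1.92 among the higher and from -1.43 to -0.72 among the lower probe sets, and 31 of the 50 changed at least 2-fold on this scale, 14 up and 17 down. The median change of all tested probe sets was 0.0095. At an unadjusted p under 0.05 there were 1854 probe sets (13.6%), 919 higher (6.73%) and 935 lower (6.85%). The 3 caesium-treated arrays lay wholly above or below the 3 control arrays in 2087 probe sets (15.3%), 1015 above (7.44%) and 1072 below (7.86%), and in 49 of the 50 that passed. In whole roots, more or fewer cells of a type and more or less of a transcript per cell cannot be told apart.

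These 50 calls rested on the block and on single arrays. The lowest adjusted p was 0.0119 and 0 probe sets passed at 0.01 in limma, against the 1854 at an unadjusted p under 0.05. Without the replicate block limma called 0, with 1354 at an unadjusted p under 0.05 (9.92%). With the scanner background as a covariate beside the block, limma also called 0, while the absolute log2 changes of the 26 named calls were 0.53 to 1.99, all in the same direction as reported. Leaving out control replicate 1 or control replicate 3 gave 0 calls each, leaving out caesium-treated replicates 1, 2 and 3 gave 6, 20 and 2, and leaving out control replicate 2 gave 86. Without both root arrays titled as repeats there were 0. The 26 probe sets among the 50 that name 1 gene kept their direction in every one of these fits. These 26 were called on the same arrays, which favours a kept direction, so it is no separate support. Their adjusted p ranged from 0.0646 to 0.441 without the block, in limma, with absolute log2 changes of 0.74 to 1.92 that the block does not alter.

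**Figure D1:**
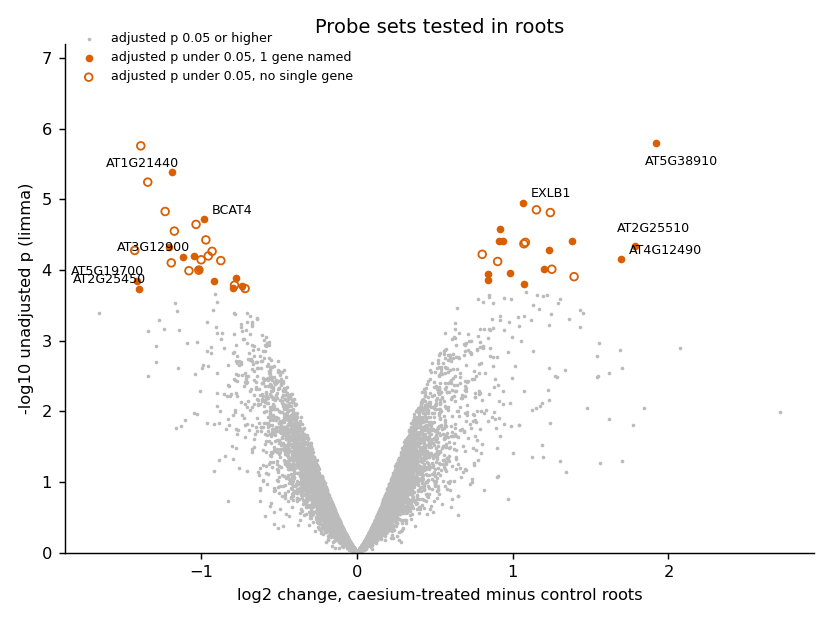
Log2 change of each of the 13646 tested probe sets in caesium-treated against control roots (x axis) and -log10 of the unadjusted limma p (y axis). Filled orange points are the 26 probe sets past the threshold that name 1 gene, open points the other 24, and their largest changes are 1.92 and -1.43.

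**Figure D2:**
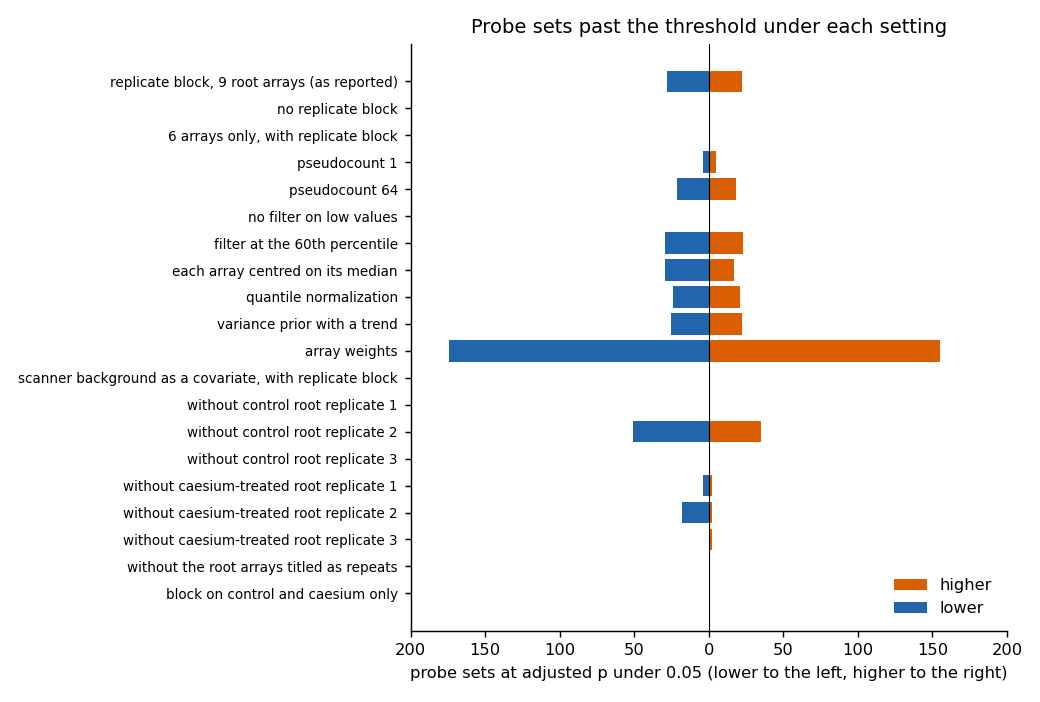
Number of probe sets at an adjusted p under 0.05 in caesium-treated against control roots under each setting of the test, with lower probe sets to the left and higher ones to the right. The reported setting gives 28 lower and 22 higher, array weights give 174 and 155, and several settings give 0.

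The largest rise was that of AT5G38910, a germin-like gene, a family of extracellular glycoproteins linked to defence and oxidative stress. Its signals were 22.2, 43.7 and 49.1 in control and 126.2, 173.7 and 280.4 in caesium-treated roots. All 3 treated arrays lay above all control arrays, 5.05-fold by the means, and the log2 change was 1.92 ± 0.19 (SE, limma adjusted p = 0.0119). The increase was 1.90, 1.67 and 2.19 within replicate numbers 1, 2 and 3. Of 13 listed germin-like genes, 1 was tested, GER2, with a log2 change of 0.11 (limma adjusted p = 0.811). AT4G12490, a lipid transfer protein gene, had signals of 23.9, 25.4 and 35.2 in control roots, a mean below the floor, and of 138.6, 199.2 and 70.8 with caesium. Its groups did not overlap, and its log2 change of 1.70 ± 0.26 (adjusted p = 0.0332) is no exact size because of the dim control signals. EXLB1 encodes an expansin-like protein, related to the wall-loosening expansins. Its signals were 145.2, 132.8 and 90.6 in control and 284.4, 320.2 and 216.9 in caesium-treated roots, again with no overlap, a log2 change of 1.07 ± 0.13 (adjusted p = 0.0262).

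Of the jasmonate and defence list, 15 of 125 listed genes had a named probe set and 5 passed the floor. Of these 5, 2 rose and 0 fell, beside 0.161% and 0.205% of all tested probe sets. Both that rose were plant defensins, small cysteine-rich antimicrobial peptides. PDF2.1 had signals of 155.5, 194 and 144.7 in control and 320, 352.2 and 312.2 in caesium-treated roots, a log2 change of 0.94 ± 0.13 (adjusted p = 0.0321). PDF1.4 had 44, 30.5 and 40.8 in control and 83.6, 79.6 and 95.9 with caesium, a log2 change of 0.92 ± 0.12 (adjusted p = 0.0319). Neither defensin overlapped between the groups. Of the 5 tested members, 3 lay wholly above control and 1, LCR68, wholly below, beside 7.44% and 7.86% of all tested probe sets. The other 3 tested members, also of the defensin-like family, did not pass, with log2 changes of 0.60 ± 0.14 for LCR69 (limma adjusted p = 0.121), 0.33 for PDF2.5 (0.426) and -0.37 for LCR68 (0.373). The median of the 5 was 0.60, against 0.0095 over all tested probe sets. PDF1.2, the defensin widely used as a jasmonate marker, was not tested, with mean signals of 1.13 in control and 3.87 in caesium-treated roots, far below the floor.

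A further 7 named rises were of genes known in the tables used here by their locus code alone. AT2G25510 had signals of 172.4, 100.3 and 97.4 in control and 573.8, 613.3 and 259.4 in caesium-treated roots, a log2 change of 1.79 ± 0.26 (limma adjusted p = 0.0322). AT1G78780 had 36.2, 43.9 and 27.2 in control and 87.9, 122.6 and 150.5 with caesium, a change of 1.38 ± 0.20 (adjusted p = 0.0321). AT3G47480 had 34.6, 40.6 and 40.2 in control and 73.6, 144.3 and 120.5 with caesium, a change of 1.20 ± 0.19 (adjusted p = 0.0376). In each of these 3 the lowest treated array was above the highest control array. AT5G09570 and AT1G22890 rose by log2 changes of 0.98 ± 0.16 and 0.91 ± 0.13 (limma adjusted p = 0.0397 and 0.0321), without overlap. Outside the 12 largest rises without overlap, AT1G25275 rose by 0.84 (0.0397). AT2G18690 rose by 1.23 ± 0.18 (limma adjusted p = 0.0322) although its groups overlapped, with 149.5, 475.7 and 237.5 in control and 355.1, 872.2 and 791.4 in caesium-treated roots. Within replicate numbers the treated array of AT2G18690 was higher by 1.16, 0.85 and 1.67. Like every other named call, AT2G18690 did not pass without the block.

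**Figure D3:**
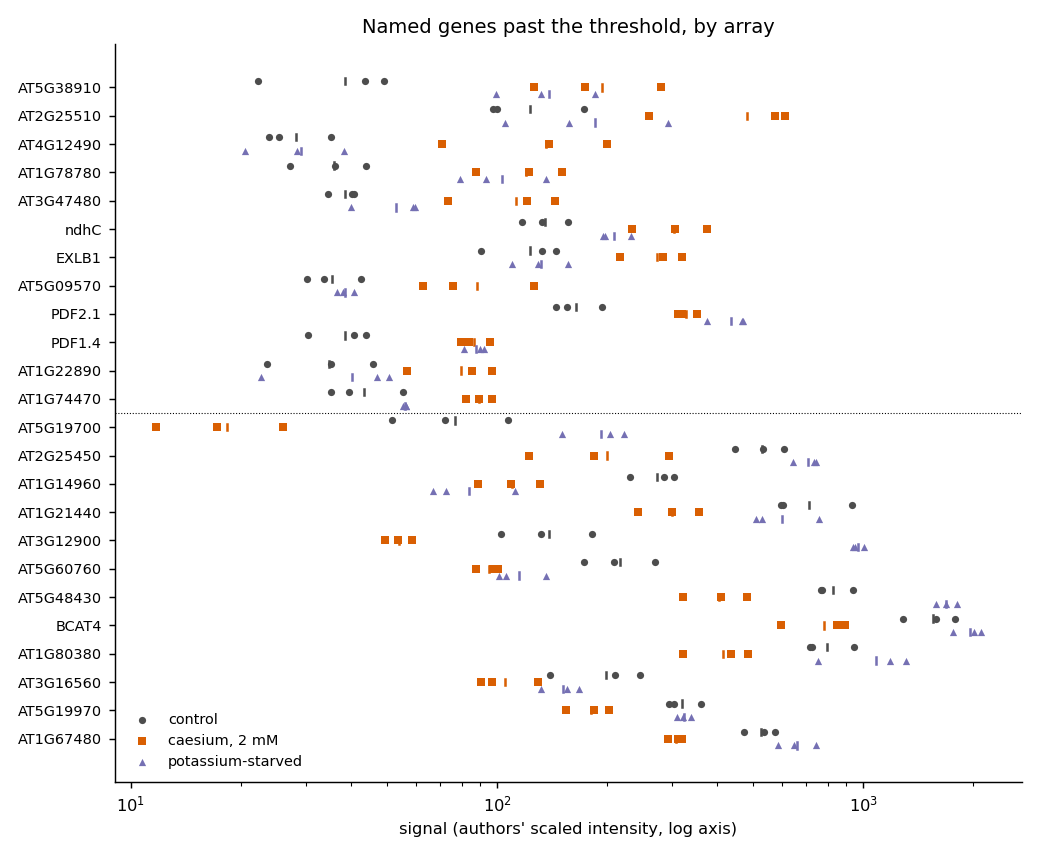
Signal of each root array (log axis, authors' scaled intensity) for the 12 named genes with the largest rises (above the dotted line) and the 12 with the largest falls (below it). Points are single arrays, short bars the group means, and the 24 genes were chosen for groups of control (black) and caesium-treated roots (orange) that do not overlap, while the potassium-starved arrays (purple) lie among the caesium-treated ones for PDF1.4 and above control for AT3G12900.

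The named rises also included ndhC and AT1G74470, which act in chloroplasts. ndhC, plastid-encoded and part of the NDH complex of the thylakoid membrane, had signals of 132.3, 116.7 and 156 in control and 374.8, 305.8 and 233.1 in caesium-treated roots. Its groups did not overlap and its log2 change was 1.07 ± 0.18 (limma adjusted p = 0.0471). AT1G74470, listed as a geranylgeranyl reductase, an enzyme that supplies the side chain of chlorophyll, had 35.3, 39.5 and 55.4 in control and 82.2, 97.2 and 89.3 with caesium, a log2 change of 0.84 ± 0.14 (adjusted p = 0.0448). These genes and AT2G25510 had far higher signals in control shoots, of 1619.1 to 2012.2 for ndhC, 2066.1 to 2247.2 for AT1G74470 and 3510.1 to 4270.3 for AT2G25510.

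Of 36 listed nuclear photosynthesis genes, 8 had a named probe set and 3 passed the floor, and 0 of these 3 passed the test. PSAE-1, a subunit of photosystem I, had signals of 14.9, 13.4 and 43.8 in control and 77.6, 80.6 and 80.2 in caesium-treated roots, a log2 change of 1.33 ± 0.33 (limma adjusted p = 0.132). Its control mean was below the floor, so that this change is no exact size and the probe set passed the filter through the brighter groups. RCA, rubisco activase, had 40.5, 45.1 and 114.3 in control and 127.9, 185.5 and 128.7 with caesium, a change of 1.07 ± 0.30 (adjusted p = 0.169). LHCB4.1, an antenna protein of photosystem II, had 53.1, 46.1 and 67.5 in control and 81.1, 136.1 and 90.8 with caesium, a change of 0.71 ± 0.19 (adjusted p = 0.150). Control replicate 3 was the highest control array for all 3. The median change of the 3 was 1.07, that of RCA, and it was 0.67 without control replicate 2, 1.55 without control replicate 3 and 0.31 with the scanner background as a covariate. All 8 named members, among them the Calvin cycle enzymes PRK and SBPASE and the chlorophyll synthesis enzyme PORB, had every caesium-treated array above every control array, beside 7.16% of all probe sets without a filter. Their summed signal was 167.8, 176.6 and 310.4 on the control root arrays, 426.1, 561.1 and 436.6 on the caesium-treated and 244.1, 396.4 and 285.8 on the potassium-starved root arrays. In control shoots the sum was 17691 to 18458. The part of green tissue in the rises of ndhC, AT1G74470 and AT2G25510 was not tested.

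Plastid-encoded genes gave 1 call. Of 129 listed, 69 had a named probe set and 53 passed the floor. Of the 53, 1, ndhC, rose and 0 fell, beside 0.161% and 0.205% of all tested probe sets. The other members nearest the threshold were psbH, a small subunit of photosystem II, with a log2 change of 0.72 ± 0.17 (limma adjusted p = 0.110), and ndhA, of the same complex as ndhC, with 0.53 ± 0.14 (0.164). The change was above 0 in 39 of the 53, with a median of 0.28 against 0.0095 over all probe sets. The median was -0.01 with 26 of 53 above 0 when control replicate 2 was left out, 0.49 with 50 of 53 above 0 without control replicate 3, and -0.29 with the scanner background as a covariate. Centring each array on its median left 0 of the 53 past the threshold. The summed signals of the 69 overlapped between the groups, at 13245, 9877 and 18522 in control and 16877, 16981 and 14747 in caesium-treated roots. Of 16 mitochondrion-encoded genes, 12 were tested and 0 passed, with a median of 0.03.

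**Figure D4:**
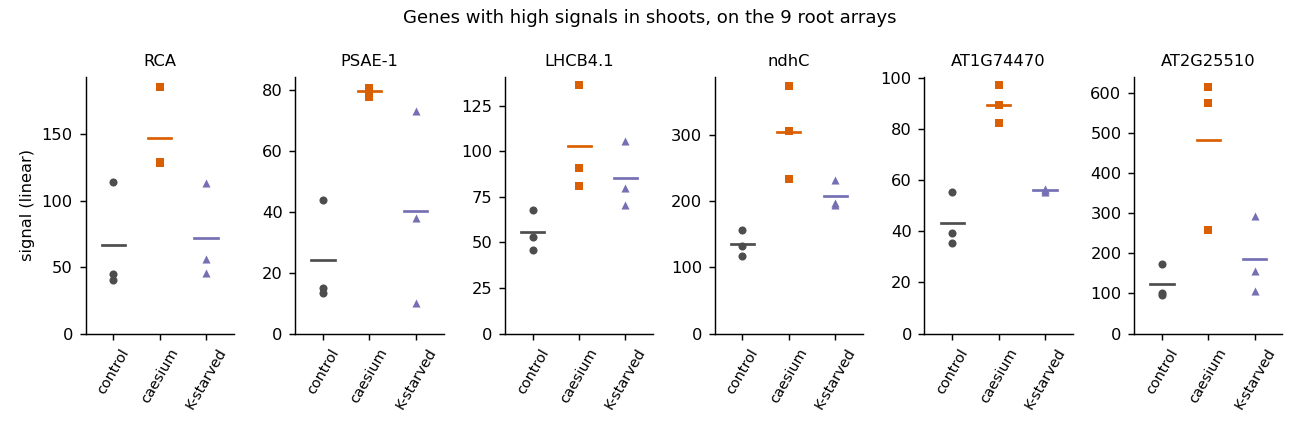
Signal (linear axis, 1 panel per gene with its own scale) of RCA, PSAE-1, LHCB4.1, ndhC, AT1G74470 and AT2G25510 on the 9 root arrays, with points for single arrays and bars for group means. Each gene had all 3 caesium-treated arrays above all 3 control arrays, as had 7.44% of all tested probe sets. The 3 that passed the threshold, ndhC, AT1G74470 and AT2G25510, were named by a rule that requires groups without overlap.

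The genes that fell included 2 of glucosinolate synthesis. Glucosinolates are sulfur-rich defence compounds of the cabbage family, and the aliphatic ones are made from methionine. BCAT4, the aminotransferase that starts the chain elongation of methionine, had signals of 1776.9, 1575.9 and 1287.3 in control and 849, 894 and 597.3 in caesium-treated roots. The treated arrays all lay lower, 1.98-fold by the means, with a log2 change of -0.98 ± 0.13 (limma adjusted p = 0.0290). AT2G25450, also a glucosinolate gene, had 532.2, 445.9 and 609.2 in control and 184.5, 294.2 and 121.9 with caesium, a change of -1.40 ± 0.24 (adjusted p = 0.0498). It was the gene just inside the threshold, and the next probe set outside it, which names no gene, had an adjusted p of 0.0505. Of 51 listed sulfate and glucosinolate genes, 7 had a named probe set and 5 were tested, of which 0 rose and 2 fell, beside 0.205% of all tested probe sets that fell. The median was -0.29, and it ranged from -0.50 without caesium-treated replicate 2 to -0.12 without control replicate 1. The other tested members were UGT74B1, a glucosinolate glucosyltransferase, with a log2 change of -0.29 (0.522), and the ATP sulfurylases APS3 with -0.17 (0.685) and APS4 with 0.70 ± 0.15 (limma adjusted p = 0.103). APS4 had signals of 299.3, 405.1 and 267.8 in control and 466.6, 614.8 and 510.7 in caesium-treated roots. After quantile normalization, 1 of the 5 passed.

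Of 38 listed genes of iron uptake and coumarin synthesis, 5 were tested and 1 fell, beside 0.205% of all tested probe sets. AT3G12900, which acts in the synthesis of coumarins, the phenolics that roots secrete to mobilise iron, had signals of 131.7, 102.8 and 181.6 in control and 53.6, 58.7 and 49.5 in caesium-treated roots. The groups did not overlap, and the log2 change was -1.12 ± 0.17 (limma adjusted p = 0.0326). AT3G13610, of the same pathway, had mean signals of 1734 in control and 1696 with caesium, a change of -0.03 (limma adjusted p = 0.945). PYE, a transcription factor of the iron deficiency response, had a change of -0.09 (0.787), and the median of the 5 was -0.09.

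The remaining falls were of genes known here by locus code. AT5G19700 had signals of 51.6, 72 and 107 in control and 26.1, 17.2 and 11.7 in caesium-treated roots. Its treated mean was below the floor, so that its log2 change of -1.41 ± 0.24 (limma adjusted p = 0.0448) is no exact size. AT1G21440 had 933.8, 602.7 and 596.8 in control and 357.1, 300.5 and 242.5 with caesium, a change of -1.19 ± 0.13 (adjusted p = 0.0186), the lowest adjusted p among the falls with a gene name. AT5G48430 had 936.6, 768.5 and 772.2 in control and 322.8, 480.8 and 408.4 with caesium, a change of -1.01 ± 0.16 (adjusted p = 0.0376). The groups of both genes were clearly apart. AT1G14960 and AT5G60760 fell by log2 changes of -1.21 and -1.05 (limma adjusted p = 0.0322 and 0.0326). AT1G80380, AT3G16560, AT5G19970 and AT1G67480 fell by -0.92, -0.80, -0.78 and -0.74 (0.0448, 0.0498, 0.0427 and 0.0492). None of these 6 overlapped between the groups. The 24 probe sets past the threshold without a single gene name comprised 8 higher, with log2 changes of 0.80 to 1.39, and 16 lower, with -1.43 to -0.72.

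Transport of potassium and other cations could be followed in few genes. Of 38 listed potassium transporters and channels, 1 had a named probe set, AT1G60160, a potassium transporter. Its signals were 17, 6.6 and 15.7 in control, 13.6, 18.3 and 22.8 in caesium-treated and 9.2, 12.7 and 8.4 in potassium-starved roots, all below the floor and overlapping, and it was not tested. Of the cation/proton exchangers, 6 had a named probe set and 1, CHX16, was tested, with 59.7, 21.5 and 47.9 in control and 50, 66.7 and 76.7 with caesium, a log2 change of 0.49 ± 0.35 (limma adjusted p = 0.574). The groups overlapped. Of 8 named cation channels of the glutamate receptor-like family, 5 were tested and 0 passed, with changes from -0.28 (GLR3.5) to 0.29 (ATGLR1.2), both no exact sizes because 1 group mean was below the floor. All 4 named proton pump subunits were tested and 0 passed. AT3G58730 had a change of 0.43 ± 0.18 (limma adjusted p = 0.329). VHA-A2, VHA-A1 and VHA-A3 had changes of -0.14 ± 0.17, 0.03 ± 0.13 and -0.07 ± 0.19. No member of the lists of low-potassium signalling, aquaporins, suberin and endodermis, or xylem and phloem had a named probe set, so these were not assessed here.

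No gene of the detoxification and redox lists passed. Of 49 listed glutathione transferases, 11 were tested and 0 passed. GSTU25, of the tau class that conjugates toxic compounds, had signals of 56.3, 41.5 and 52.7 in control and 96.1, 220.8 and 167.2 in caesium-treated roots, a log2 change of 1.36 ± 0.27 (limma adjusted p = 0.0778). GSTU20 had 142, 184.5 and 171.7 in control and 125, 72.4 and 48.5 with caesium, a change of -0.96 ± 0.22 (adjusted p = 0.109). GSTU27 had a change of -0.63 ± 0.15 (adjusted p = 0.113). At an unadjusted p under 0.05, 3 of the 11 were higher and 4 lower, beside 6.73% and 6.85% of all tested probe sets. The median was -0.04, and it ranged from -0.21 without caesium-treated replicate 2 to 0.12 without control replicate 1. Of 10 tested redox genes 0 passed. NDB2 oxidises NADH on the outer face of the inner mitochondrial membrane. It had 161.8, 146.3 and 143.8 in control and 258.5, 210.3 and 259.9 with caesium, without overlap. Its change was 0.63 ± 0.13 (limma adjusted p = 0.0803). GR, a glutathione reductase, had a change of -0.26 (0.387). Of 26 tested UDP-glycosyltransferases, which attach sugars to small molecules, 0 passed, 5 were higher and 0 lower at an unadjusted p under 0.05 (6.73% and 6.85% of all probe sets), and UGT85A2 had the smallest p with a change of 0.79 ± 0.16 (adjusted p = 0.0845).

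Wall, growth and signalling lists gave few or no calls. Of 42 tested genes of cell wall expansion and structure, 1, EXLB1, rose and 0 fell, beside 0.161% and 0.205% of all tested probe sets. The median change of the 42 was -0.07 (-0.13 to -0.016 without 1 array), with a range from -0.51 to 1.07. The xyloglucan endotransglucosylases XTH20 and XTH33 had changes of 0.51 (limma adjusted p = 0.193) and -0.37 (0.249). Of the root hair genes, 3 were tested and 0 passed, with changes of 0.31 for AT3G49960, -0.10 for EXPA18 and 0.02 for EXPA7. No gene passed among 6 tested calcium-binding, 9 nitrate and ammonium, 5 auxin, 3 gibberellin, 6 WRKY, 5 bHLH or 7 cytochrome P450 genes, nor among 7 of sugar transport and metabolism. At an unadjusted p under 0.05 in limma, 2 of the 48 tested genes of these 8 lists were higher and 5 lower. Over all tested probe sets the shares were 6.73% and 6.85%. CML41, a calmodulin-like protein, had a change of 0.33 (0.372), from a control mean below the floor. COR47, a dehydrin, and LTI30, also a dehydrin, had changes of -0.60 and 0.59 (limma adjusted p = 0.214 and 0.283).

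Caesium-treated roots were also compared directly with potassium-starved roots. At a limma adjusted p under 0.05, 1628 of the 13646 probe sets differed between caesium-treated and potassium-starved roots (11.9%), 923 higher (6.76%) and 705 lower (5.17%) with caesium. Without the replicate block there were 695. Potassium-starved roots differed from control roots in 725 (5.31%), 343 higher (2.51%) and 382 lower (2.8%) without potassium. Both comparisons share arrays with that of caesium against control, so values are given side by side only. Genes named for a change with caesium were chosen on the same caesium-treated and control arrays. For them, the p-values of both comparisons are partly set by that choice and are no separate evidence.

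Several genes named above lay on the same side of control under both treatments. AT5G38910 had 131.8, 99.3 and 185.4 in potassium-starved roots, a log2 change of 1.51 ± 0.19 from control (limma adjusted p = 0.00457), and the difference of caesium from potassium starvation was 0.41 ± 0.19 (adjusted p = 0.183). PDF2.1 had 374, 466 and 470.3 without potassium, a change of 1.33 from control (0.00283), and PDF1.4 had 91.9, 81.5 and 90.1, a change of 0.94 (0.00637). Caesium-treated roots differed from potassium-starved roots by -0.39 ± 0.13 for PDF2.1 and -0.02 ± 0.12 for PDF1.4 (limma adjusted p = 0.0840 and 0.928). AT1G78780 and AT1G14960 had changes of 1.18 and -1.56 from control without potassium (0.0139 and 0.00349), and differences between the treatments of 0.20 and 0.35 (0.543 and 0.216). None of these 5 differences between the treatments passed the test, which does not show that the treatments act alike. For PDF2.1 the caesium-treated arrays all lay below the potassium-starved arrays.

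For other genes the treatments lay on opposite sides of control. AT3G12900 had signals of 948.4, 939.9 and 1007.3 in potassium-starved roots, a log2 change of 2.70 ± 0.17 from control (limma adjusted p = 0.000159), while it fell with caesium. The direct difference was -3.81 ± 0.17 (adjusted p = 1.15e-05). AT5G48430 had 1679.4, 1801.2 and 1581.5 without potassium, and caesium-treated roots were lower by -2.04 ± 0.16 on the log2 scale (adjusted p = 0.000491). AT5G19700 had 150.2, 222.2 and 203.3 without potassium, with a direct difference of -2.60 ± 0.24 (adjusted p = 0.000738). For these 3 genes the potassium-starved arrays were all above control and the caesium-treated arrays all below. They were chosen for their fall on the same caesium-treated arrays, which favours small p-values of the direct difference.

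The glucosinolate genes had means above control without potassium, and neither passed. BCAT4 had 2100, 2010.7 and 1761.8 in potassium-starved roots, a change of 0.35 from control (limma adjusted p = 0.142), and caesium-treated roots were lower than potassium-starved ones by -1.33 ± 0.13 (adjusted p = 0.000897). AT2G25450 had 742.6, 734.7 and 641.3 without potassium, a change of 0.41 from control (0.336), and a direct difference of -1.82 ± 0.24 (adjusted p = 0.00409). EXLB1 and AT4G12490 were near control without potassium, at 156.6, 129.5 and 109.8 and at 20.5, 38.3 and 28.4. Caesium-treated roots exceeded potassium-starved roots by 0.97 ± 0.13 for EXLB1 and 1.68 ± 0.26 for AT4G12490 (limma adjusted p = 0.00427 and 0.00667). EXLB1 and AT4G12490 were chosen for their rise on the same caesium-treated arrays, and BCAT4 and AT2G25450 for their fall. The direct p-values of these genes therefore add no separate support to their changes with caesium. ASPGB1, an asparaginase, and WRKY22, a defence-linked transcription factor, had changes of 0.39 and -0.31 with caesium (0.400 and 0.347), and lay below potassium-starved roots by -1.36 and -1.56 (limma adjusted p = 0.00433 and 0.000635).

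The response of roots was also set against that of shoots, which share no array with it. In shoots, 796 of 13647 probe sets passed between caesium-treated and control plants (5.83%), 493 higher (3.61%) and 303 lower (2.22%). An interaction term over 18 arrays and the 11846 probe sets tested in both organs found 165 with a different response (1.39%). The change with caesium was the more positive in roots for 58 (0.49%) and in shoots for 107 (0.903%). Of the 17 named genes that changed in roots and were tested in both organs, 5 had a different response. The 17 were chosen by the root change that the interaction also uses, so this count cannot be set against the 1.39%. The interaction p-values of these genes are partly set by that choice too. AT2G25510, ndhC and AT1G74470 rose in roots and had changes of -0.10, -0.12 and -0.25 in shoots, and the differences of root from shoot response were 1.89 ± 0.32, 1.19 ± 0.24 and 1.09 ± 0.23 (limma adjusted p = 0.0150, 0.0251 and 0.0310). AT2G25450 fell in roots, while in shoots it had signals of 841.4, 547.6 and 584.6 in control and 819.4, 1212.9 and 1171.1 with caesium, a change of 0.69 ± 0.21 that did not pass (adjusted p = 0.0891). The difference of the responses was -2.09 ± 0.35 (adjusted p = 0.0150). AT1G21440 fell in roots and had a change of 0.05 ± 0.17 in shoots, with a difference of -1.23 ± 0.21 (adjusted p = 0.0160).

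For the other root calls the difference between organs did not pass. AT3G47480 rose in shoots by 1.25 ± 0.22 (limma adjusted p = 0.0119), and its responses differed by -0.05 ± 0.31. AT2G18690 rose in shoots by 1.12 ± 0.24 (adjusted p = 0.0258), and AT1G22890 by 0.64 ± 0.15 (adjusted p = 0.0347). BCAT4 had a change of -0.24 ± 0.18 in shoots (adjusted p = 0.473), and the difference of -0.74 ± 0.22 from the root response did not pass (0.114). EXLB1 and PDF1.4 had changes of 0.35 ± 0.23 and 0.35 ± 0.35 in shoots, and neither passed the test of the difference (limma adjusted p = 0.236 and 0.550). AT5G38910 and PDF2.1 were below the floor in shoots, at 4.6 to 10.6 and 0.4 to 2.2 in control shoots, and were not tested there.

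**Figure D5:**
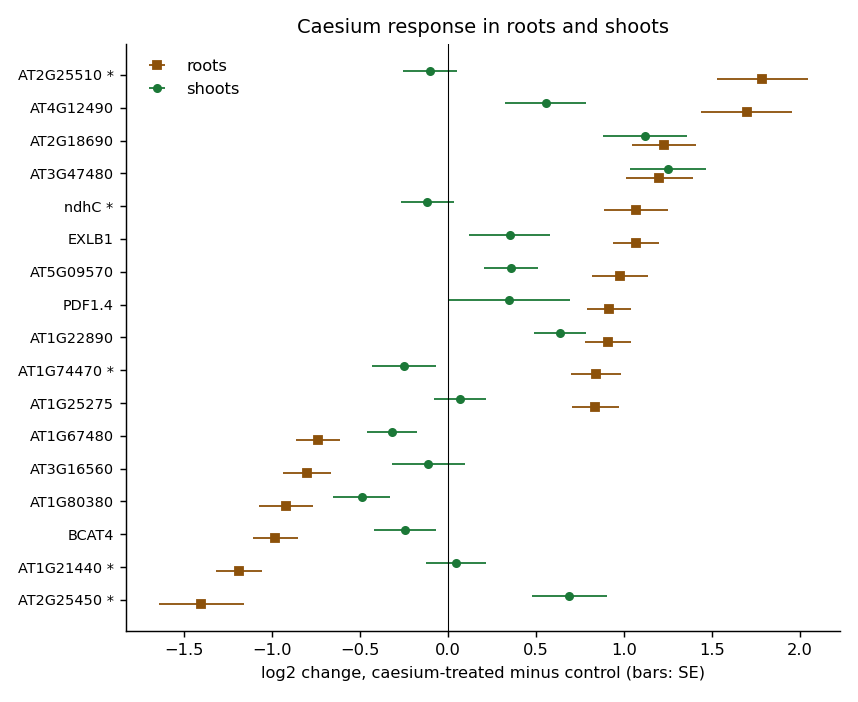
Log2 change with caesium in roots (brown squares) and in shoots (green circles) for the 17 named genes that passed in roots and were tested in both organs, with bars for the standard error. Asterisks mark the 5 genes that passed the interaction test, among them AT2G25450 at -1.40 in roots and 0.69 in shoots.

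Over the 9 root arrays, the 5 named probe sets most like AT5G38910 in pattern, by Pearson's r of the log2 values, were AT4G10060 (0.964), AT1G78780 (0.934), LPA2 (0.925), AT3G13120 (0.911) and AT5G13880 (0.909). AT1G78780 was among the rises with caesium. The other 4 had log2 changes of 0.22 to 0.35 that did not pass (limma adjusted p = 0.265 to 0.462). These correlations are a description of 9 arrays in 3 groups.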

How the data were processed

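Total RNA of roots and shoots was hybridised to 18 Affymetrix ATH1 arrays, 3 for each of 6 groups of organ and treatment, per the labels. The deposited signal intensities hold 22810 probe sets on a linear scale, and a mean trimmed by 2% at each end came to 100 on every array. The software and any further steps of the authors are not given in the sources used here. The 18 arrays limit the precision, and no detection calls were used.

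The 64 control probe sets were removed. Of the other 22746, 13513 named 1 gene in the platform annotation, 503 several and 8730 were not listed. Of the named ones, 13436 were found in a RefSeq gene table. Intensities were transformed as log2(value + 16) without further scaling. Probe sets with a mean above the 40th percentile of an organ (28.3 in roots, 27.9 in shoots) were fitted with limma 3.58.1 in R 4.3.3, with group and replicate number as terms, over the 9 root arrays, or all 18 with a block within each organ for the interaction. This left 4 residual degrees of freedom in roots, with 5.83 added by the variance prior. P-values were two-sided and adjusted by the Benjamini-Hochberg method over all tested probe sets, with a threshold of 0.05. The same steps were tested on simulated data. An effect shared within each replicate number was built into them, so they cannot show that the block suits the real samples. No 2 arrays held identical values, and the highest correlation between signals of any pair was 0.9845.

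Numbers were held to pair samples where deviations from the group means correlated above 0.1 for every number. This was so for control and caesium-treated roots, at 0.452, 0.180 and 0.183 for numbers 1 to 3. Control replicate 2 and caesium-treated replicate 3, of unlike number, correlated at 0.174. The rule therefore does not show that numbers 2 and 3 pair these samples. It was not met for potassium-starved roots against control (0.499, 0.142 and -0.0307) or against caesium-treated roots (0.299, 0.0861 and 0.280). For potassium-starved roots the block rests on the shared number alone.

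Named genes were, past the threshold and without overlap of arrays, the 12 that rose most and the 12 that fell most, up to 3 members of each list with the smallest p, every named gene of potassium transport, and the 5 probe sets most like the largest rise. Other genes given from a list, and the calls outside these, were added after their values were seen. The members and the gene lists were chosen with earlier results of these data known. Lists of cytosolic ribosomal proteins, class III peroxidases and NAC factors, and 1 phosphate gene, were dropped after matching to the probe sets because they caught other genes. Alternatives covered the block, the arrays fitted, the pseudocount, the filter, the scaling, the variance prior, array weights, the scanner background and leaving out arrays.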

Additional observations from a re-analysis of the deposited data

Results flagged for a closer look

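Several genes named for their change in roots also passed the interaction test of root against shoot response over all 18 arrays. That test uses the same root arrays, so its p-values for these genes are partly set by the choice. The response in roots minus that in shoots was 1.89 on the log2 scale for AT2G25510, 1.19 for ndhC and 1.09 for AT1G74470, genes with far higher signals in shoots, and -2.09 for AT2G25450 and -1.23 for AT1G21440.

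A further 3 genes changed in the organs unequally without a call in roots. PSAE-1, of photosystem I, had a difference of 1.74 ± 0.39 (limma adjusted p = 0.0397), with 14.9, 13.4 and 43.8 in control and 77.6, 80.6 and 80.2 in caesium-treated roots. Its control mean in roots was below the floor, so that this difference is no exact size. In shoots PSAE-1 had 3259.8, 3054.8 and 3324.2 in control and 2414.1, 2763.7 and 2108.2 with caesium, a change of -0.41 (0.131). WRKY6, a transcription factor of senescence and defence, had a difference of -1.37 ± 0.27 (adjusted p = 0.0219). Its shoot signals were 36.6, 22.1 and 10.4 in control and 107.4, 86.9 and 90.4 with caesium, whereas the root signals overlapped at 74.1 to 158.4 and 126 to 135.8. CYP71B23, a cytochrome P450, had a difference of -1.33 ± 0.26 (adjusted p = 0.0214), with 81.4 to 111.3 in control and 272.6 to 359 in caesium-treated shoots, while its root signals overlapped. The groups hold 3 arrays each, so single arrays that stand apart were not tested for.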

How the results depend on the processing

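The count of 50 probe sets between caesium-treated and control roots moved with most choices. It was 0 with no replicate block, 0 with no filter on low values, 0 with the scanner background as a covariate, 0 without the arrays titled as repeats, 1 with the 6 arrays alone, 9 with a pseudocount of 1 and 329 with array weights. It was 0 with the block on the control and caesium-treated arrays only, an alternative chosen after seeing the data. Leaving out 1 array gave 0 to 86. The cause was not tested. With a pseudocount of 64, the 60th percentile as the filter, median centring, quantile normalization or a variance trend the count was 39, 52, 46, 45 and 47. All 26 named calls kept their direction under every setting that tested them. They were called on the same arrays, which favours a kept direction, so it is no separate support. Of the 26, 0 passed in all 6 fits without 1 array and 4 passed in none.

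Caesium-treated against potassium-starved roots gave 1628, 695 with no replicate block, and 249 to 1139 without 1 array, the lowest without caesium-treated replicate 3; it was 352 without caesium-treated replicate 1 and 507, 816 and 767 without potassium-starved replicates 1, 2 and 3. The difference between root and shoot responses gave 165, 21 with no replicate block, and 16 to 184 without 1 root array, the lowest without caesium-treated replicate 1, with 29 without caesium-treated replicate 3 and 39 and 102 without control replicates 1 and 3. The difference in scanner background, -9.45, was -11.9 to -7.48 without 1 array.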
